A study of Mus musculus with 43 samples.

Results

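Aldh1l1, Gja1, Sox9, S100b and Agt, 5 genes whose RNA is used to mark astrocytes, were followed across 4 nuclei of the hypothalamus in fed and fasted mice that lack the paternal copy of the Snord116 cluster. The genes were taken by name, with no rule on their values, and are 5 of the 10127 genes in the table of CPM, the reads of a gene scaled to a fixed total of reads per library. All mice were adult males of strain C57/BL6 carrying the paternal deletion B6(Cg)-Snord116tm1.1Uta/J (Snord116+/-P), a model of Prader-Willi syndrome. They either fed ad libitum or went without food for 24 h. The arcuate nucleus (ARC), dorsomedial nucleus (DMH), paraventricular nucleus (PVN) and ventromedial nucleus (VMH) were cut out of cresyl violet-stained brain sections with a laser, so every library holds all the cell types of a nucleus. The 41 libraries came from 12 mice and comprised 4 fasted and 5 fed ARC, 5 fasted and 6 fed DMH, 5 fasted and 5 fed PVN, and 6 fasted and 5 fed VMH libraries. Every mouse carried the deletion and wild-type mice were not analysed here, so none of the values measures an effect of the deletion. Mice are named by nutritional state and number, such as Fast-86 and Fed-111.

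Astrocytes are the glial cells that take up transmitter and potassium around synapses, cover blood vessels with their end feet and supply neurons with fuel, and in the hypothalamus they also sense hormones and nutrients. Gja1 encodes connexin 43, the main protein of the gap junctions that couple astrocytes. Aldh1l1 encodes 10-formyltetrahydrofolate dehydrogenase, an enzyme of folate metabolism that is widely used to label astrocytes. Sox9 is a transcription factor of the glial lineage, and S100b is a calcium-binding protein that some oligodendrocytes also make. Agt encodes angiotensinogen, the secreted precursor that renin cleaves on the way to angiotensin II, and astrocytes are its main source in the brain. In bulk samples such as these, fewer astrocytes and less RNA per astrocyte cannot be told apart.

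On the GRCm38 build all 5 are protein-coding genes. Agt (ENSMUSG00000031980) lies on the minus strand at chr8:124556534-124569706, Gja1 (ENSMUSG00000050953) at chr10:56377330-56402513, S100b (ENSMUSG00000033208) at chr10:76253853-76261159, Sox9 (ENSMUSG00000000567) at chr11:112782224-112787760 and Aldh1l1 (ENSMUSG00000030088) at chr6:90486427-90600203, the last 4 on the plus strand. The table gives 1 value per gene, so the values do not separate exons or isoforms. The 250 bases before the start of transcription in RefSeq (GRCm38.p6) are shown for Agt, which varied most between the nuclei, and for S100b, which stood beside it in level per length. Agt is read from chr8:124569707-124569956 on the minus strand and S100b from chr10:76253586-76253835 on the plus strand, both 5′ to 3′ towards the start, and capitals mark matches to a TATA box (TATAAA) and to the TTGGC core of nuclear factor I sites, read on either strand, a factor family active in astrocyte development.
Agt: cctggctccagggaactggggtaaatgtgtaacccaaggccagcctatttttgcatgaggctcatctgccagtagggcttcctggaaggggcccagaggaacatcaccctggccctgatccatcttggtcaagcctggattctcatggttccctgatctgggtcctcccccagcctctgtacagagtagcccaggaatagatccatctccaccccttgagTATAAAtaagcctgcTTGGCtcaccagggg
S100b: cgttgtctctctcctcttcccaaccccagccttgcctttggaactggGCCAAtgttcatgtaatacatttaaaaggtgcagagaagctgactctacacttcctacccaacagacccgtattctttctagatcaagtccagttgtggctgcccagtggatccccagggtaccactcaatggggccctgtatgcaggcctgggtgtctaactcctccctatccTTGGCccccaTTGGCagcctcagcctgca

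The Agt promoter held 1 TATAAA, which began 30 bases before the start and which 12.4% of 32851 mouse promoters of the same length also held on either strand. It held 1 nuclear factor I core, 15 bases before the start, and the S100b promoter held 3, at 203, 29 and 19 bases before the start. That core was present in 41.5% of all promoters. Of the 5 genes 4 had an entry in the promoter table, and the Gja1 and Aldh1l1 promoters held neither motif. The letters ACAAT, the core bound by Sox proteins, and AGAACA, part of steroid receptor sites, were searched on both strands as well and stood in none of the 4 windows, against 27.7% and 16.1% of all promoters. No 2 matches overlapped. A match describes letters in a window and is no sign of binding.

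All 5 genes were detected in each of the 41 libraries. Their expression was unequal: per kilobase of exon, Agt averaged 44.9 ± 21.2 CPM (SD, n = 41) and S100b 44.3 ± 11.4, while Gja1 averaged 7.94 ± 2.23, Sox9 6.98 ± 2.91 and Aldh1l1 3.24 ± 2.12. On that scale Agt and S100b were above 95.6% and 95.4% of the genes in the table, and Aldh1l1 was above 40.9%. Before division by length the mean was 84.99 ± 40.1 CPM for Agt (20.7 to 229), 81.4 ± 22.8 for Gja1 (42.3 to 146), 65.8 ± 16.9 for S100b (35.3 to 102), 28.8 ± 12.1 for Sox9 (8.27 to 67.9) and 14.6 ± 9.57 for Aldh1l1 (2.80 to 60.9). These levels rested on a median of 342 reads in a library for Agt, 337 for Gja1, 294 for S100b, 118 for Sox9 and 59 for Aldh1l1. Counting alone then gives an SD of 5.41% for Agt and 13.02% for Aldh1l1, while the spread between libraries of a nucleus was larger, with a coefficient of variation of at least 33.7% for Agt, 16.1 to 23.4% for Gja1, 17.0 to 33.8% for S100b, 30.0 to 45.8% for Sox9 and 39.0 to 89.0% for Aldh1l1. Gja1 and S100b varied less than the other 3 over all 41 libraries, with a coefficient of variation of 28.1% and 25.7%, and Aldh1l1, the least deeply sampled, varied most, with 65.4%. Taken alone, the nucleus held 57.8% of the variance of Agt on the log2(CPM + 0.5) scale, 51.0% of that of Gja1, 38.5% for S100b, 18.6% for Sox9 and 16.9% for Aldh1l1, beside 16.3% for the median gene of at least 5 CPM.

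**Figure D1:**
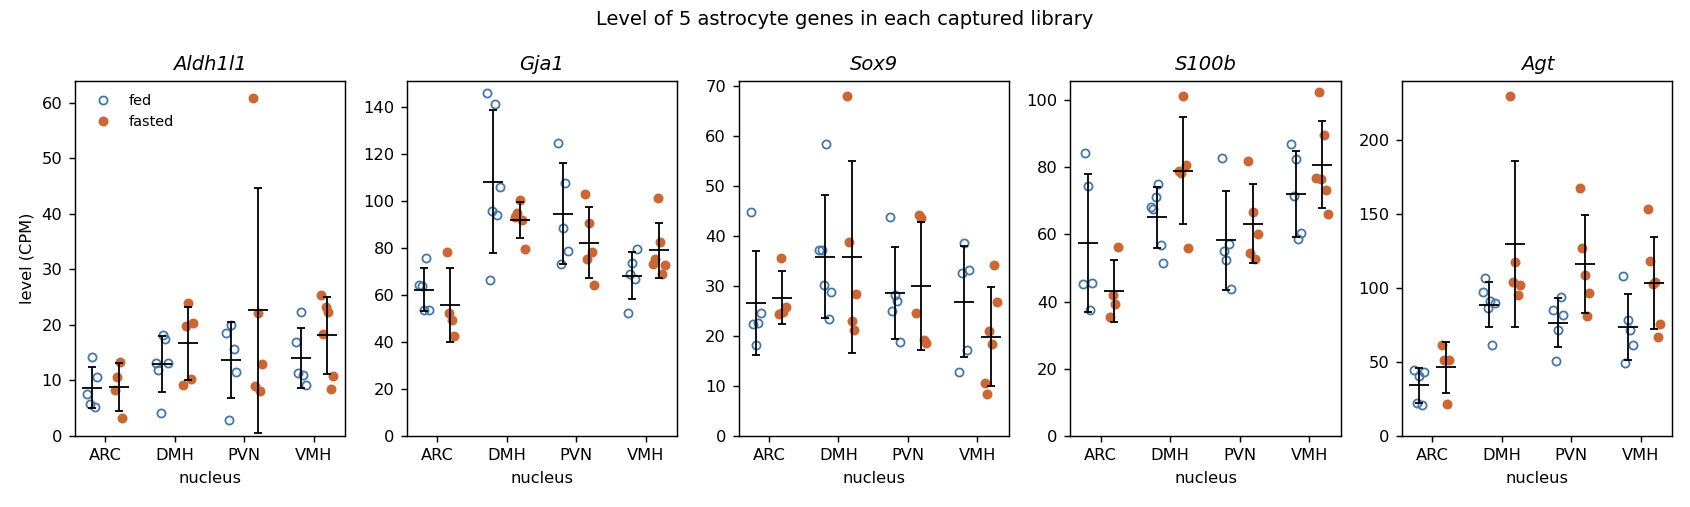
CPM of the 5 astrocyte genes in every library, by nucleus and nutritional state; points are libraries and bars are group means with the SD. Agt in ARC lies between 20.7 and 61.1 CPM, beneath the DMH libraries (61.2 to 229).

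The first comparison set each nucleus against the mean of the other 3, with fed and fasted libraries weighted equally. Each nucleus is part of the mean for the others, so a gene low in ARC comes out higher in the rest. ARC stood apart: Agt, Gja1, S100b and Aldh1l1 were all lower there, and Sox9 was not. For Agt, the ARC libraries of fasted mice Fast-86, Fast-100, Fast-305 and Fast-311 gave 61.1, 51.2, 21.4 and 51.5 CPM, and those of fed mice Fed-111, Fed-125, Fed-127, Fed-308 and Fed-313 gave 44.7, 22.0, 40.4, 20.7 and 43.2 CPM. The other nuclei were mostly higher, with a lowest, median and highest value of 49.2, 78.0 and 153 CPM in VMH, 50.3, 89.2 and 167 in PVN and 61.2, 96.9 and 229 in DMH. For Agt the highest ARC library (61.1 CPM) lay just beneath the lowest DMH library (61.2 CPM), and ARC overlapped with PVN and VMH. The level of Agt in ARC was 0.413 times that of the other nuclei on the log2(CPM + 0.5) scale, a log2 difference of -1.28 ± 0.13 (SE; limma adjusted p = 2.3e-11), which ranked 72 by p among 10121 genes tested. Within batches 1, 2 and 3 of capture and library preparation the difference was -1.26, -1.28 and -1.33.

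Gja1 in ARC ranged from 42.3 to 78.1 CPM with a median of 53.5, against 52.3 to 101.2 in VMH, 63.9 to 124.7 in PVN and 66.1 to 146 in DMH, so ARC sat at the low end of ranges that overlapped. Its log2 difference was -0.55 ± 0.11 (adjusted p = 0.000116), or 0.684 times the other nuclei. S100b in ARC had a median of 45.1 CPM (35.3 to 84.2), against 76.6 in VMH, 71.1 in DMH and 56.0 in PVN, and differed by -0.48 ± 0.11 (adjusted p = 0.00068). The highest ARC values of S100b were both fed libraries of batch 2, mice Fed-125 and Fed-127 at 84.2 and 74.4 CPM, and the difference within the 3 batches was uneven, at -1.0, -0.16 and -0.42. Aldh1l1 in ARC had a median of 8.21 CPM (3.22 to 14.1) and was lower by a log2 difference of -0.76 ± 0.28 (adjusted p = 0.0488). That call was lost without the ARC library of mouse Fast-86, Fast-311 or Fed-125, where the adjusted p was 0.114, 0.174 and 0.104. Sox9, with an ARC median of 24.6 CPM (18.2 to 44.7), differed by -0.01 ± 0.20, with a 95% interval of -0.42 to 0.39. The 4 calls out of 5 genes compare with 21.5% of all genes tested that passed the same adjusted p of 0.1, 9.74% higher and 11.7% lower in ARC.

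DMH held the highest mean levels of Agt and Gja1. Agt was 1.53 times its level in the other nuclei there (log2 difference 0.61 ± 0.12, limma adjusted p = 0.000158), and within the 3 batches the difference was 0.53, 0.66 and 0.57. Gja1 was 1.36 times higher (0.45 ± 0.10, adjusted p = 0.00149), with 0.25, 0.56 and 0.44 within batches. For Agt, DMH passed against ARC alone: DMH minus PVN was 0.13 and DMH minus VMH 0.29 (limma adjusted p = 0.632 and 0.153). For Gja1 it passed against ARC and VMH. PVN stood above DMH for Agt in batch 3 (mean log2(CPM + 0.5) 6.46 and 6.43) and for Gja1 in batch 1 (6.83 and 6.60). The DMH median of Gja1 was 94.6 CPM, and its highest values of 146 and 141 CPM came from fed mice Fed-92 and Fed-127. Sox9 (0.42 ± 0.19, adjusted p = 0.155), S100b (0.22 ± 0.10, 0.1496) and Aldh1l1 (0.17 ± 0.26, 0.758) did not pass. In DMH 15.0% of all genes passed, 8.20% higher and 6.79% lower.

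In PVN only Agt passed. It was 1.36 times higher than in the other nuclei (0.44 ± 0.12, limma adjusted p = 0.00637), and the difference within batches was 0.32, 0.35 and 0.62. Against single nuclei, Agt in PVN passed against ARC alone: DMH minus PVN was 0.13 and PVN minus VMH 0.16 (limma adjusted p = 0.632 and 0.453). Gja1 had a median of 83.5 CPM in PVN and a difference of 0.22 ± 0.10 that missed the threshold (adjusted p = 0.1404). Aldh1l1 spanned 2.80 to 60.9 CPM in PVN, its widest range in any nucleus, and differed by 0.24 ± 0.26. Without mouse Fast-86, whose PVN library held the 60.9 CPM, the Aldh1l1 difference was -0.012. Of all genes 22.0% passed in PVN, 10.4% higher and 11.6% lower.

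In VMH S100b was higher and Sox9 lower than elsewhere, and the Sox9 difference was largest in batch 1. S100b spanned 58.6 to 102 CPM with a median of 76.6, and the difference was 0.34 ± 0.10 (1.27 times, limma adjusted p = 0.00615), with 0.51, 0.26 and 0.30 within batches. Sox9 in the VMH libraries of fasted mice had a lowest, median and highest value of 8.27, 19.6 and 34.2 CPM, and those of fed mice Fed-111, Fed-125, Fed-127, Fed-308 and Fed-313 gave 12.8, 32.5, 38.5, 17.2 and 33.1 CPM. Its difference was -0.46 ± 0.19 (0.726 times, adjusted p = 0.0610). The difference was largest in batch 1, whose VMH libraries of mice Fast-85, Fast-86 and Fed-111 gave 10.49, 8.27 and 12.8 CPM. Within the batches it was -1.77, -0.22 and 0.20, so it was smaller in batch 2 and changed direction in batch 3. The adjusted p rose to 0.133, 0.162, 0.200 or 0.126 without the VMH library of mouse Fast-85, Fast-86, Fed-111 or Fed-308, and to 0.175 with mouse as a block, where the difference was -0.38. Agt (0.22 ± 0.12, adjusted p = 0.165), Gja1 (-0.12 ± 0.10) and Aldh1l1 (0.35 ± 0.26) did not pass. Of all genes 33.1% passed in VMH, 16.4% higher and 16.7% lower.

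**Figure D2:**
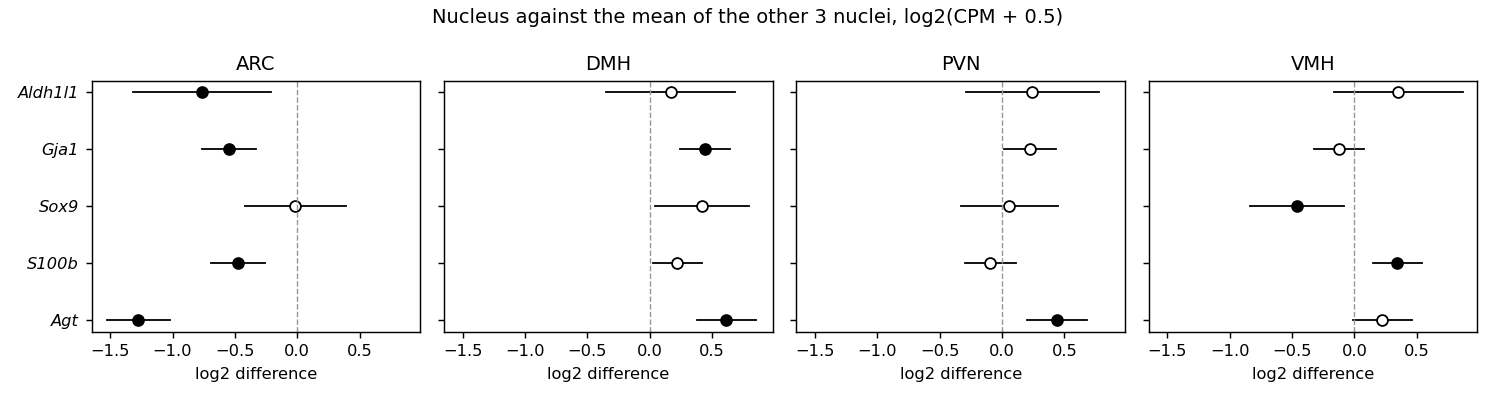
Log2 difference of each astrocyte gene between a nucleus and the mean of the other 3, from limma on log2(CPM + 0.5), with 95% intervals; filled points pass an adjusted p of 0.1. Of the 20 differences 9 pass, 4 of them decreases in ARC, and Agt in ARC is the farthest from 0 at -1.28. The differences of a gene are not independent, since each nucleus is part of the mean for the others.

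Ordered by mean, Agt ran DMH (107 ± 42.9 CPM, SD, n = 11), PVN (96.1 ± 32.4, n = 10), VMH (89.8 ± 30.3, n = 11) and ARC (39.6 ± 14.9, n = 9). ARC was lower than DMH by a log2 difference of -1.42, than PVN by -1.29 and than VMH by -1.12 (limma adjusted p = 3.5e-10, 3.7e-09 and 3.6e-08), while no pair among the other 3 passed. With mouse as a block, DMH against VMH passed as well (0.34, adjusted p = 0.0614). Gja1 ran DMH (100.7 ± 23.6), PVN (88.3 ± 18.6), VMH (74.0 ± 11.9) and ARC (59.2 ± 12.1). DMH and PVN, neighbours in that order, did not differ beyond their spread. PVN exceeded VMH by 0.26 but missed the threshold (limma adjusted p = 0.1256, unadjusted p = 0.04255). It passed in 5 of 41 fits with a library left out. DMH exceeded VMH by 0.43 (adjusted p = 0.00804), and ARC was lower than VMH by -0.32 (adjusted p = 0.0629). That last call was lost without the ARC library of mouse Fast-100, Fast-311 or Fed-127 or the VMH library of mouse Fast-100 or Fed-313, where the adjusted p was 0.111, 0.148, 0.118, 0.113 and 0.131.

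S100b ran in another order, VMH (76.8 ± 13.1 CPM), DMH (71.4 ± 14.0), PVN (60.7 ± 12.8) and ARC (51.1 ± 17.3). ARC was lower than VMH by a log2 difference of -0.61 and than DMH by -0.52 (limma adjusted p = 0.000143 and 0.00236), and PVN was lower than VMH by -0.33 (adjusted p = 0.0414), while the neighbours VMH and DMH, DMH and PVN, and PVN and ARC did not pass. Sox9 ran DMH (35.8 ± 14.9), PVN (29.2 ± 10.6), ARC (27.0 ± 8.10) and VMH (23.0 ± 10.54), and of its pairs only DMH against VMH passed, by 0.66 (adjusted p = 0.0326). With mouse as a block that difference was 0.58 (adjusted p = 0.106), without mouse Fast-86 it was 0.42 (adjusted p = 0.193), and the adjusted p was 0.118 without the DMH library of mouse Fast-86 and 0.101 without the VMH library of mouse Fed-111. Aldh1l1 ran PVN (18.1 ± 16.1), VMH (16.2 ± 6.34), DMH (14.6 ± 5.80) and ARC (8.73 ± 3.71). PVN stood first through the library of mouse Fast-86 at 60.9 CPM: by median the order was VMH (16.9), PVN (14.3), DMH (13.1) and ARC (8.21), and the fitted difference of PVN minus VMH was -0.08. Only ARC against VMH passed, by -0.83 (adjusted p = 0.0569; 0.102 to 0.157 without the ARC library of mouse Fast-86, Fast-311 or Fed-125 or the VMH library of mouse Fed-127). Of 30 comparisons of pairs 12 passed: 3 of 5 genes for ARC and DMH, 2 for ARC and PVN, 4 for ARC and VMH, 0 for DMH and PVN, 2 for DMH and VMH and 1 for PVN and VMH. The same pairs separated 18.0%, 16.7%, 30.3%, 18.0%, 23.4% and 31.3% of all genes. In DMH against PVN none of the 5 had an unadjusted p under 0.05 in limma, the only tool run.

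Other genes that astrocytes express were taken from a list of 56, of which 24 were in the table. In ARC 16 of 24 were lower and none higher, beside 11.7% and 9.74% of all genes, and their median log2 difference was -0.47, beside -0.0018 over all genes. Among transporters, Slco1c1 (thyroid hormone and organic anions) differed by -1.06 ± 0.21, Slc6a11 (GABA) by -0.49 ± 0.06, Slc7a10 (amino acids) by -0.41 ± 0.15 and Slc27a1 (fatty acids) by -0.41 ± 0.13. Of the channel and junction genes, Gjb6 (connexin 30) differed by -0.65 ± 0.14, the sodium pump subunit Atp1b2 by -0.59 ± 0.06 and Hepacam by -0.53 ± 0.14. The secreted protein Mfge8 differed by -1.14 ± 0.18, and the transcription factors Sox2 and Hes5 by -1.30 ± 0.22 and -0.68 ± 0.26. In DMH 12 of 24 were higher and none lower (median 0.30), beside 8.20% and 6.79% of all genes, among them Sox2 by 1.26 ± 0.20, Lcat (lipoprotein metabolism) by 1.07 ± 0.25 and Slc6a11 by 0.51 ± 0.06.

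PVN had 3 of the 24 higher, near the 10.4% of all genes, and 6 lower, beside 11.6% (median -0.10), with Chrdl1, a secreted BMP antagonist, higher by 2.70 ± 0.32 and Slco1c1 by 1.44 ± 0.20, and Lcat, Sox2 and the potassium channel Kcnj10 lower by a log2 difference of -0.72 ± 0.26, -0.60 ± 0.21 and -0.45 ± 0.07. VMH had 12 higher and 3 lower (median 0.23), beside 16.4% and 16.7% of all genes. Slc7a10 was higher there by 0.74 ± 0.14, Mt3 (metallothionein 3) by 0.86 ± 0.31 and Sox2 by 0.64 ± 0.20, while Chrdl1, Bmpr1b (a BMP receptor) and Lcat were lower by -1.82 ± 0.31, -0.70 ± 0.22 and -0.56 ± 0.25. All of these passed an adjusted p of 0.1 in limma.

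**Figure D3:**
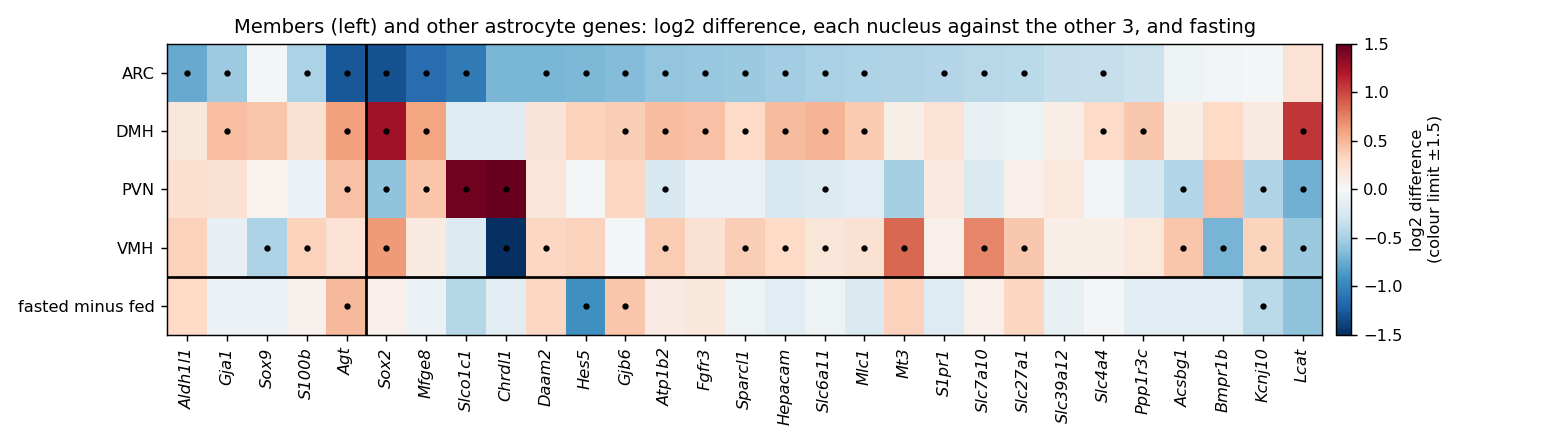
Colours give the log2 difference between each nucleus and the mean of the other 3 for the 5 astrocyte genes and for 24 further genes expressed by astrocytes. The last row gives fasted minus fed averaged over the nuclei. Values are from limma on log2(CPM + 0.5), and black dots mark those that pass an adjusted p of 0.1. In ARC 16 of the 24 further genes pass and all are lower, and in DMH 12 pass and all are higher.

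Genes of the pathways and families of the 5 were followed as well. Of 12 genes of the renin-angiotensin system 4 were in the table, and the angiotensin II receptor Agtr1a had a pattern of its own: 36.8 CPM on average in PVN, 12.8 in ARC, 3.69 in DMH and only 0.157 for VMH. It was higher in PVN by a log2 difference of 3.56 ± 0.36 and in ARC by 0.91 ± 0.37, where Agt was lowest, and lower in VMH by -3.86 ± 0.35 (limma adjusted p = 2.8e-11, 0.0895 and 5.1e-13), and at so low a level in VMH the size depends on the pseudocount. Atp6ap2, the (pro)renin receptor, was higher in PVN by 0.52 ± 0.11, as was the aminopeptidase gene Anpep by 1.13 ± 0.43, and the receptor Agtr2 was lower in ARC by -1.05 ± 0.42. Of 10 other gap junction genes 4 were lower in ARC, beside 11.7% of all genes, Gjb1 (-1.55 ± 0.39), Gjc1 (-1.01 ± 0.36), Gjd2 (-0.77 ± 0.29) and Gjb6, and none was higher. In DMH 2 were higher (Gjc3 by 0.47 ± 0.14, and Gjb6 by 0.37 ± 0.13) and 1, Gja4, was lower by -1.495 ± 0.425, beside 8.20% and 6.79% of all genes. In PVN 1 of the 10 was higher and 1 lower, near the shares of all genes (10.4% and 11.6%), and in VMH 3 were higher and 1 lower, beside 16.4% and 16.7%.

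Of 11 other Sox genes measured, 4 were higher in ARC (Sox3 by 1.93 ± 0.41, Sox21 by 1.21 ± 0.36, Sox11 by 1.17 ± 0.35 and Sox4 by 0.78 ± 0.22) and 3 lower, beside 9.74% and 11.7% of all genes, while in VMH 5 were higher, led by Sox1 at 1.53 ± 0.14 and Sox13 at 1.18 ± 0.32, and 2 were lower, beside 16.4% and 16.7%. In DMH 2 of the 11 were higher, beside 8.20%, and in PVN 2 were lower, beside 11.6%, so the lower counts in VMH and PVN were near those of all genes. Of 4 other genes of the S100 family, 2 were higher in VMH (S100a13 by 0.95 ± 0.40 and S100a16 by 0.68 ± 0.24) and 1, S100a10, was lower by -2.38 ± 0.33, beside 16.4% and 16.7% of all genes. S100a16 was lower in ARC by -0.71 ± 0.25, beside 11.7% of all genes, and S100a10 was higher in PVN by 1.65 ± 0.34, beside 10.4%. Among 5 other folate enzymes of the 15 listed, Mthfd2l was lower in ARC, by -0.88 ± 0.30, and was higher in DMH by 0.84 ± 0.28, and no other passed in any nucleus.

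Markers of other cell types also differed between the nuclei. In VMH, where S100b was highest, all 7 oligodendrocyte markers measured, among them Mbp and Mobp, were higher, and their summed level was 1129 to 1780 CPM, against 246 to 780 in ARC. Of those 7, 5 were lower in ARC, where 3 of 6 endothelial markers were lower too, with sums of 64.2 to 116 CPM in ARC and 229 to 379 in PVN, and where all 6 tanycyte markers were higher. In PVN all 6 endothelial markers were higher and 4 of 7 oligodendrocyte markers lower, with 2 tanycyte markers higher and 4 lower, and in DMH 2 of 4 neuronal markers were higher and 1 lower, with 1 tanycyte marker higher and 3 lower. In VMH 3 of 4 neuronal markers were higher and 1 lower, and 2 tanycyte markers were higher and 3 lower. The share of all genes that passed was 33.1% for VMH, 22.0% for PVN, 21.5% for ARC and 15.0% for DMH. Of 4 neuronal markers 3 were lower and 1 higher in ARC. The defining oligodendrocyte gene Mbp was above 0 in every library, and Opalin was at 0 in 4 of 41. The part of these cells in the differences of the 5 genes was not tested. Gad1, of inhibitory neurons, separated the nuclei, averaging 217 and 228 CPM in ARC and DMH and 20.7 and 11.3 in PVN and VMH.

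The second comparison asked whether fasting changed the 5 genes. Averaged over the 4 nuclei, Agt rose by a log2 difference of 0.49 ± 0.10 (SE), or 1.40-fold, with a 95% interval of 0.28 to 0.69 (limma with mouse as a random block, adjusted p = 0.0045), rank 51 by p of 10121 genes. None of the other 4 passed: Aldh1l1 had 0.30 ± 0.23 (95% interval -0.16 to 0.76), Gja1 -0.09 ± 0.09 (-0.26 to 0.09), Sox9 -0.09 ± 0.17 (-0.43 to 0.24) and S100b 0.06 ± 0.09 (-0.12 to 0.24). The block used a correlation between libraries of a mouse that was shared by all genes and estimated at -0.0032. These fits therefore treat the libraries of a mouse nearly as independent. The 1 call of 5 compares with 3.18% of all genes, 1.52% higher and 1.66% lower when fasted. Nutritional state alone held 13.01% of the variance of Agt, against 1.06 to 4.57% for the other 4 and 1.41% for the median gene.

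In ARC, the means of Agt were 46.3 ± 17.2 CPM fasted (SD, n = 4) and 34.2 ± 11.8 fed (n = 5), from the values given above. In DMH, fasted mice Fast-86, Fast-100, Fast-101, Fast-305 and Fast-311 gave 229, 104, 117, 95.2 and 102 CPM, and fed libraries had a lowest, median and highest value of 61.2, 90.3 and 106 CPM. The fasted DMH libraries were all above the fed median, with mouse Fast-86 far above the rest, and the groups overlapped between 95.2 and 106 CPM. In PVN, the same fasted mice gave 167, 127.1, 108, 80.9 and 96.2 CPM, and fed mice Fed-111, Fed-125, Fed-127, Fed-308 and Fed-313 gave 84.8, 50.3, 71.4, 93.6 and 81.6 CPM. In VMH the fasted libraries had a lowest, median and highest value of 67.0, 103 and 153 CPM, and the fed mice, in the same order, gave 108, 49.2, 78.0, 71.3 and 61.2 CPM. Fasted libraries lay above the fed median in 5 of 6 cases in VMH, 4 of 5 in PVN, 5 of 5 in DMH and 3 of 4 in ARC, and in each nucleus the fasted and fed ranges of Agt overlapped.

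Taken nucleus by nucleus, no gene of the 5 passed. The fasting difference of Agt was 0.59 ± 0.18 in PVN, 0.56 ± 0.16 in DMH, 0.41 ± 0.30 in ARC and 0.39 ± 0.16 in VMH (limma adjusted p = 0.256, 0.569, 0.718 and 0.663, unadjusted p = 0.0045, 0.00217, 0.185 and 0.026). Leaving out 1 library, it ranged over 0.45 to 0.71 in PVN, 0.36 to 0.67 in DMH (lowest without mouse Fast-86), 0.23 to 0.68 in ARC (lowest without mouse Fast-311, highest without mouse Fast-305) and 0.25 to 0.46 in VMH (lowest without mouse Fed-125). Agt was the 1 gene of the 5 with an unadjusted p under 0.05 in VMH, PVN and DMH, and in ARC there was none. Few genes of any kind passed in these fits, 0.367%, 0.0103%, 0.176% and 0.0208% of those tested in PVN, DMH, ARC and VMH. The test of a difference in the fasting change between nuclei called 0% of genes, with 522 genes and none of the 5 at an unadjusted p under 0.05 (0.112 to 0.872 for the 5).

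Within batches the difference of Agt was above 0 in all 12 combinations of nucleus and batch, from 0.014 to 1.17, and in VMH, PVN and ARC it was smallest in batch 3. For batches 1, 2 and 3 it was 0.311, 0.735 and 0.104 in VMH, 0.975, 0.963 and 0.014 in PVN, 1.17, 0.316 and 0.409 in DMH, and 0.446, 0.769 and 0.149 in ARC. In every batch a nucleus had only 1 or 2 libraries of a state. For the other genes the count above 0 was 7 (Aldh1l1), 4 (Gja1), 5 (Sox9) and 9 (S100b) of 12. Because libraries of a mouse share its brain, the mean deviation of each mouse from the nucleus means was compared as well, a test added after the data were seen. For Agt the fasted mice Fast-85, Fast-86, Fast-100, Fast-101, Fast-305 and Fast-311 had 0.84, 0.80, 0.31, 0.24, -0.35 and 0.09, and the fed mice Fed-92, Fed-111, Fed-125, Fed-127, Fed-308 and Fed-313 had -0.07, 0.14, -0.65, -0.13, -0.44 and -0.15. Both fasted mice of batches 1 and 2 lay above the fed mice of their batch, and in batch 3 mouse Fast-305 lay beneath the fed mouse Fed-313. Mice Fast-85 and Fed-92 had 1 library each (VMH and DMH) and counted the same as mice with 3 or 4 libraries, and they were 2 of the 4 mice of batch 1. The difference was 0.54, with 0.78, 0.67 and 0.17 in the 3 batches and a 2-sided p of 0.0185 by exact permutation of fasted and fed within batches, where the smallest possible p is 0.00926; the other 4 genes had p of 0.231 to 0.287. Without mouse Fast-86 the mean change of Agt over the nuclei was 0.44 (limma adjusted p = 0.0326).

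**Figure D4:**
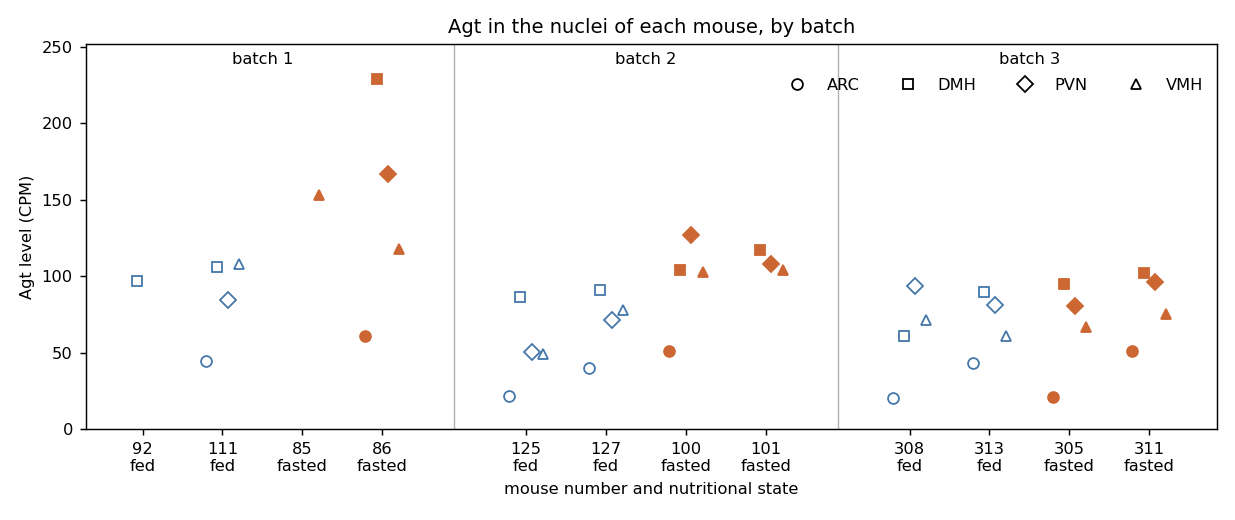
Agt CPM in each nucleus of each mouse, fasted and fed, by batch of capture and library preparation. Fasted mice Fast-85 and Fast-86 of batch 1 stand highest, up to 229 CPM in DMH, and the ARC values of every mouse lie at or under 61.1 CPM.

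Of the 24 further astrocyte genes, 1 rose and 2 fell with fasting over the 4 nuclei, beside 1.52% and 1.66% of all genes, and the median log2 difference was -0.10, beside 0.011 over all genes. Gjb6 rose by 0.42 ± 0.12 (limma adjusted p = 0.0423). Kcnj10, the inward rectifier channel through which astrocytes take up potassium, fell, with a log2 difference of -0.41 ± 0.06 (adjusted p = 7.0e-06) and means of 257, 274 and 206 CPM fasted against 337, 364 and 268 fed in ARC, DMH and PVN. Hes5, a Notch target, had -0.92 ± 0.22 (adjusted p = 0.0124). So Agt and Gjb6 were higher and Kcnj10 and Hes5 lower in fasted mice, while Gja1, the partner of Gjb6 in astrocyte junctions, did not pass. Agtr1a averaged 53.3 CPM fasted and 20.2 fed in PVN but did not pass over the nuclei, nor did any other renin-angiotensin, S100 or folate gene measured, and of the Sox genes Sox6 fell, with a log2 difference of -0.39 ± 0.12 (adjusted p = 0.0802). Few markers of other cells passed for fasting: 1 of 6 endothelial markers, Flt1, was lower (-0.33 ± 0.10), and 0 of 4 neuronal, 7 oligodendrocyte, 7 microglial and 6 tanycyte markers passed, with 2, 0, 1 and 0 of them at an unadjusted p under 0.05 in limma.

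Batch itself separated Agt and S100b. Agt averaged 117 CPM in batch 1 (n = 10), 80.2 in batch 2 (n = 15) and 69.5 in batch 3 (n = 16), and S100b averaged 72.6, 71.7 and 55.9 CPM. With nucleus and state in the model both passed (limma adjusted p = 0.00029 and 0.022), as 31.7% of all genes did, and the other 3 did not (0.3925 to 0.564). The S100b call was lost without mouse Fed-313 (adjusted p = 0.132). Every test above of nuclei and fasting held batch as a covariate.

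The third question was whether the 5 genes, as markers of the same cells, vary together from library to library. Within a nucleus each pair of genes was correlated over the libraries, 40 correlations in all. Of these 2 passed the threshold and 25 were above 0, with a median Pearson's r of 0.12. The median was 0.48 in PVN (10 of 10 pairs above 0, n = 10), 0.12 in VMH (6 of 10, n = 11), 0.11 in DMH (7 of 10, n = 11) and -0.09 in ARC (2 of 10, n = 9). Centred on batch, the medians were 0.29, 0.07, 0.08 and -0.17 in that order. Fed and fasted libraries were correlated together and nutritional state was not removed, so r can also hold differences of state. Permutations ran across states and batches. Pairs of other genes were not counted within a nucleus, so these counts have no share over all genes beside them. Over all 41 libraries, as deviations from the nucleus mean, 48.5% (Agt) to 52.5% (Sox9) of 7521 genes had r above 0 with a member.

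Both pairs that passed an adjusted p of 0.1 over the 40 were in VMH and involved Agt. Agt was lower where Sox9 was higher (r = -0.82, Spearman's rho = -0.75, permutation p = 0.0026 and 0.0117, adjusted p = 0.0992 and 0.191) and followed Aldh1l1 (r = 0.79, rho = 0.73, permutation p = 0.0050 and 0.0143, adjusted p = 0.0992 and 0.191). Without the 2 libraries farthest from the median of the first gene r was -0.70 and 0.76, and centred on batch it was -0.55 and 0.93, so the first relation shrank within batches and the second did not. Without mouse Fast-86 both pairs missed the threshold, while r stayed at -0.81 and 0.79. The 2 relations failed the adjustment by rank and passed it narrowly by Pearson's r. A further 4 had an unadjusted permutation p under 0.05: Aldh1l1 with Agt (r = 0.75, n = 10) and Gja1 with S100b (0.63, n = 10) in PVN, and Aldh1l1 with S100b (0.67, n = 11) and S100b with Agt (0.61, n = 11) in VMH. Centred on batch these were 0.68, 0.12, 0.04 and 0.19, and Aldh1l1 with Agt in PVN went to -0.18 without the 2 farthest libraries and thus rested on them.

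**Figure D5:**
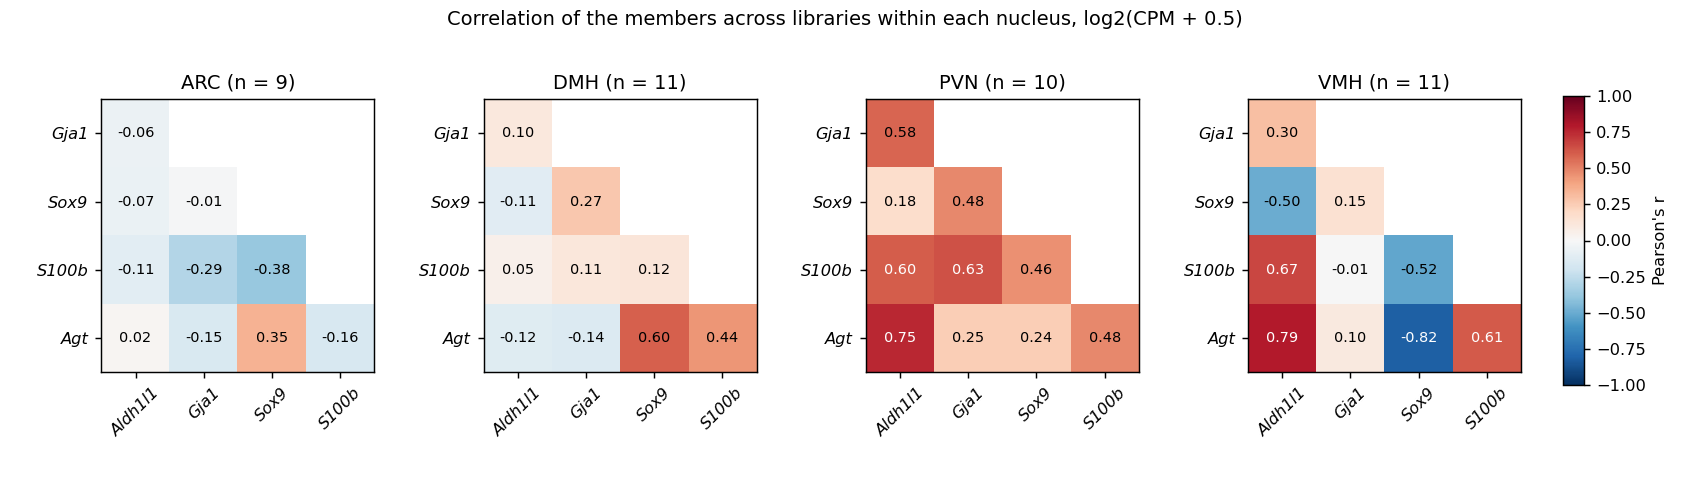
Pearson's r between the 5 astrocyte genes over the libraries of each nucleus, on log2(CPM + 0.5). In PVN all 10 pairs are above 0, in ARC 2 of 10 are, and the extremes are Sox9 with Agt (-0.82) and Aldh1l1 with Agt (0.79) in VMH.

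Over all 41 libraries, taken as deviations from the nucleus mean, the highest r between any pair of the 5 was 0.37 (Aldh1l1 with Agt), followed by Aldh1l1 with S100b (0.28) and with Gja1 (0.27), and the lowest was Aldh1l1 with Sox9 (-0.11). These are descriptions over libraries that share mice, batches and depth. The genes most like each member by this measure, among 7521 of at least 5 CPM, were others. For Agt they were Mt2 (0.73), Pigs (0.72), Ndufc2 (0.72), Mt1 (0.72) and Phyhd1 (0.71), for Gja1 Prr36 (0.59), Fbxw8 (0.58), Arf3 (0.56) and Rmi1 (0.55), and for S100b Tceal6 (0.70), Rfxank (0.68), Pbx2 (0.58), 9130221H12Rik (0.57) and Tecpr1 (0.56). For Aldh1l1 they were Pdxk (0.66), Gpr107 (0.64), Paxx (0.64), Cadm4 (0.62) and Serinc4 (0.61), and for Sox9 Rnf113a1 (0.56), Raver2 (0.54), Tril (0.53), Acot6 (0.52) and Zfp691 (0.52). With 22 further astrocyte genes the median r was 0.13 for Agt, 0.09 for S100b, 0.07 for Aldh1l1, 0.06 for Sox9 and 0.03 for Gja1, beside -0.013, -0.0025, 0.0030, 0.010 and -0.0019 over all genes ranked. Agt reached from 0.61 with Slc27a1 to -0.63 with Kcnj10. The deviations of 4 members ran against that of the summed neuronal markers, with r of -0.50 for Agt, -0.36 for Aldh1l1, -0.35 for Gja1 and -0.35 for S100b, and Sox9 had 0.07. With the summed oligodendrocyte precursor markers r was 0.30, 0.37, 0.27, 0.26 and 0.10 in that order. Summed oligodendrocyte markers had 0.36 with Gja1 and -0.06 to 0.06 with the others. For microglial markers r was 0.33 with S100b and 0.05 to 0.21 with the others. The part of these cells in the change of Agt was not tested.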

How the data were processed

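RNA from laser-captured nuclei was extracted with the miRNeasy kit, amplified with the Ovation RNA-Seq System V2 and sequenced as single-end reads, and capture and library preparation were done in 3 batches. The submitters' processing notes name CASAVA 1.7, TopHat2 2.0.11, Cufflinks 2.2.1, edgeR and limma, and the GRCm38 build. The authors left out outlying libraries, which can lower the spread, and deposited CPM per Ensembl gene. The use of strand and the program that counted reads are not given in the sources used here, so overlapping genes may share reads. Symbols and positions came from GENCODE M21 and matched 9891 of 10127 genes. The table had no gene from a range of identifiers with 6725 annotated genes. The CPM of a library summed to 554896 to 689010, and genes in that range such as Gfap and Slc1a2 were not analysed here.

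Of 43 columns, 41 matched a sample by nucleus, state and mouse number. The other 2 (named ARC of mice Fast-85 and Fed-92) were not used, and 2 of 43 samples (PVN of the same mice) were not analysed here, so 41 libraries entered the fits planned for 43. Depth was read from the step of low values, of which 96.0 to 97.7% were whole multiples within 0.1, and was 1.94 to 8.23 M reads (M, mega; median 4.10 M). Amplified reads are not independent molecules, and intervals from reads cover counting error only.

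Tests were 2-sided, with limma 3.58.1 in R 4.3.3 (lmFit, eBayes with a trend) on log2(CPM + 0.5), which understates changes of low genes. Genes needed 1 CPM in as many libraries as the smallest group. Batch was a covariate. Benjamini-Hochberg adjustment ran over all genes tested, with calls at an adjusted p under 0.1 as in the study. Scripts were tested on simulated data that held no batch differences. Of 200 genes given a 2-fold fasting change there, 99.5% were called over the nuclei. Single-nucleus fits called 27% of them in ARC, 30.5% in PVN, 40% in DMH and 45.5% in VMH, so these fits can miss changes of that size. Replicate numbers are mouse numbers, since the 4 nuclei came from the same brain. Deviations of same-numbered libraries had a median correlation of -0.056 over 57 pairs, beside -0.061 for other numbers. The values themselves thus gave no sign of the pairing. P values measure the spread between libraries. Correlation p values came from permutations, exact under 10 libraries.

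The 5 genes, the gene lists and the tests were chosen with earlier results of these data known. Named genes were the 5, the genes of each list past the threshold (at most 4 by size) or otherwise those highest in CPM, and the 5 genes most like each by r. Some named genes are not reported here. Alternatives were pseudocounts of 0.1 and 2, no filter, median-ratio scaling, no batch term, mouse as a block, library weights, and leaving out each library or mouse.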

Additional observations from a re-analysis of the deposited data

Results flagged for a closer look

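In 4 of 40 groups made by 5 genes, 4 nuclei and 2 states, 1 library stood far from the others of its group by its gap relative to the range. Chance gives about 1 in 20 such groups. Agt in fasted DMH was 229 CPM in mouse Fast-86, and 95.2 to 117 in the other 4 libraries. Aldh1l1 in fasted PVN was 60.9 CPM, again in mouse Fast-86, and 8.02 to 22.2 in the others. In ARC, Sox9 was 35.6 CPM in mouse Fast-100 of the fasted group, against 24.3 to 25.8 in its other mice, and 44.7 CPM in mouse Fed-111 of the fed group, against 18.2 to 24.6.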

How the results depend on the processing

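Over 3170 alternative values of the 5 genes, 3065 kept their direction and side of the threshold, 23 lost a call, 24 gained one and 58 changed direction. The lower Agt, Gja1 and S100b in ARC, the higher Agt and Gja1 in DMH, Agt in PVN and S100b in VMH, and the fasting rise of Agt over the nuclei passed under every alternative run. Agt then rose by 0.38 to 0.61 (limma adjusted p = 0.000269 to 0.0715, the highest without a batch term). Leaving out 1 library or mouse, the number of the 5 genes called ranged over 1 to 3 in VMH, 1 to 2 in PVN, 2 to 3 in DMH, 3 to 4 in ARC and 1 to 3 for batch. The VMH count was 1 with mouse as a replicate block and 1 without mouse Fast-86. The block also lost Sox9 between DMH and VMH and gave a call for Agt there (0.34, adjusted p = 0.0614), and changed no other. Correlations past the threshold numbered 1 centred on batch, 0 without the 2 farthest libraries and 0 without mouse Fast-86, where r of the 2 pairs in VMH was -0.81 and 0.79.

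Directions that changed belonged to differences that did not pass. For fasting, Sox9 in DMH was 0.0024 with a pseudocount of 2 and 0.0061 with median-ratio scaling, and Aldh1l1 in ARC was -0.0031 with that scaling, -0.037 without a batch term, -0.117 with library weights and -0.0092 without mouse Fast-86. Without mouse Fast-86, Sox9 in ARC against the other nuclei was 0.019, Aldh1l1 in PVN -0.012 and Aldh1l1 in DMH minus PVN 0.27. Leaving out 1 library, fasting differences ranged over -0.29 to 0.39 (Aldh1l1 ARC), -0.45 to 0.0058 (S100b ARC), -0.22 to 0.38 (Sox9 ARC), -0.076 to 0.60 (Aldh1l1 DMH), -0.29 to 0.20 (Sox9 DMH) and -0.11 to 0.23 (Sox9 PVN). Differences between nuclei ranged over -0.14 to 0.070 (Sox9 ARC), -0.046 to 0.11 (Sox9 PVN), -0.17 to 0.047 (Sox9 ARC minus PVN), -0.30 to 0.17 (Aldh1l1 DMH minus PVN), -0.22 to 0.014 (Aldh1l1 DMH minus VMH) and -0.31 to 0.17 (Aldh1l1 PVN minus VMH). The cause was not tested. Of all genes, 322 passed for fasting over the nuclei and 96 without a batch term. In single nuclei the counts were 35 in PVN (3 to 79 over the alternatives), 17 in ARC (0 to 24), 2 in VMH (1 to 5) and 1 in DMH (0 to 2). Reads per library were fewest for Aldh1l1, with a median of 59.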
